A study of Mus musculus with 4 samples.

Results

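The cell cycle and DNA replication genes comprise 41 genes. Apart from Polb, a polymerase of base excision repair, they copy DNA, divide the cell or drive entry into either step. They were taken by symbol, and each was read from the array feature whose annotation gives that symbol alone, or from the brightest such feature where there were several. Of the 41 genes, 38 were measured in this way, among 30176 genes on the array. Ccnb1 (cyclin B, the partner of CDK1) had no feature with its symbol alone, and the features of Mcm7 (a subunit of the replicative helicase) and Ccnd1 (a D-type cyclin) also carry the names of microRNAs, so these 3 genes have no value.

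Signals were measured in purified pancreatic β-cells of Tyk2-/- and Tyk2+/+ mice at 11w and of both genotypes at 6w, with 1 array for each of the 4 conditions and the cells of several mice pooled on each. All mice were females of the NOD strain, which develops autoimmune diabetes. Tyk2-/- mice lack tyrosine kinase 2, a Janus kinase used by interferon receptors, in every tissue; the allele had been bred through C57BL/6J onto NOD/shiJcl, and a marker on the chromosome of Tyk2 was not of NOD origin. Cells had been sorted as positive for the zinc dye FluoZin-3-AM and the mitochondrial dye TMRE and negative for the leukocyte antigen CD45.

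In a dividing cell, D-type cyclins with CDK4 phosphorylate the retinoblastoma protein, which frees E2F factors to switch on the genes of S phase. The MCM ring is then loaded on replication origins, GINS helps to turn it into an active helicase, and PCNA clamps the polymerases to DNA, while a later wave of genes, many of them with a CHR element and CCAAT boxes in their promoters, builds the mitotic spindle. β-cells of young mice divide, and division becomes rarer with age.

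Each comparison set 1 array against another, so no difference has a replicate check and none was tested. A gene was called higher when its signal ratio was over 1.5 and its Z score over 2.0, and lower when its ratio was under 0.66 and its Z score under -2.0. Differences with age are 11w minus 6w, and those between the genotypes are Tyk2-/- minus Tyk2+/+. For the Z score, a gene's log2 difference was set against the SD among features of like brightness, 500 to either side in the order of mean signal. In whole-population RNA of this kind, fewer cells in cycle and less RNA per cell cannot be told apart. The insulin gene Ins2 was at 98683 on the 11w Tyk2-/- array, 93930 on the 11w Tyk2+/+ array, 97214 on the 6w Tyk2-/- array and 101685 on the 6w Tyk2+/+ array. Gcg (glucagon) and Sst (somatostatin), which mark other islet cells, stood at the highest signal of every array. The β-cell gene Iapp had the same value as Gcg and Sst on each array. Tied at the top, these signals do not show how much RNA of each islet cell type was present. The β-cell transcription factors Pdx1 and Mafa were dim, between 14.8 and 17.5 and between 12.4 and 18.8.

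Most of the cell cycle genes were dim, as were most genes on the array. The median of all features was 17.5 on the 11w Tyk2-/- array, 17.3 on the 11w Tyk2+/+ array, 16.2 on the 6w Tyk2-/- array and 15.7 on the 6w Tyk2+/+ array. Of the 38 genes, 15 (39.5%) lay at or above it on the 11w Tyk2-/- array, against 55.3% of all genes, and 17 (44.7%) on the 11w Tyk2+/+ array, against 55.5%. On the 6w Tyk2-/- array it was 19, against 56.5% of all genes, and on the 6w Tyk2+/+ array 23 (60.5%), against 57.1%. In all, 13 genes were at or above the median on all 4 arrays, and 13 were below it on all 4. A mean signal of 50 or more, a limit chosen after the values had been seen, was found for 6 of the 38 genes (15.8%), against 5227 of 30176 of all genes (17.3%), and the 6 were Ccnd2, Gins4, Pcna, Polb, Haus1 and Cdk4.

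**Figure D1:**
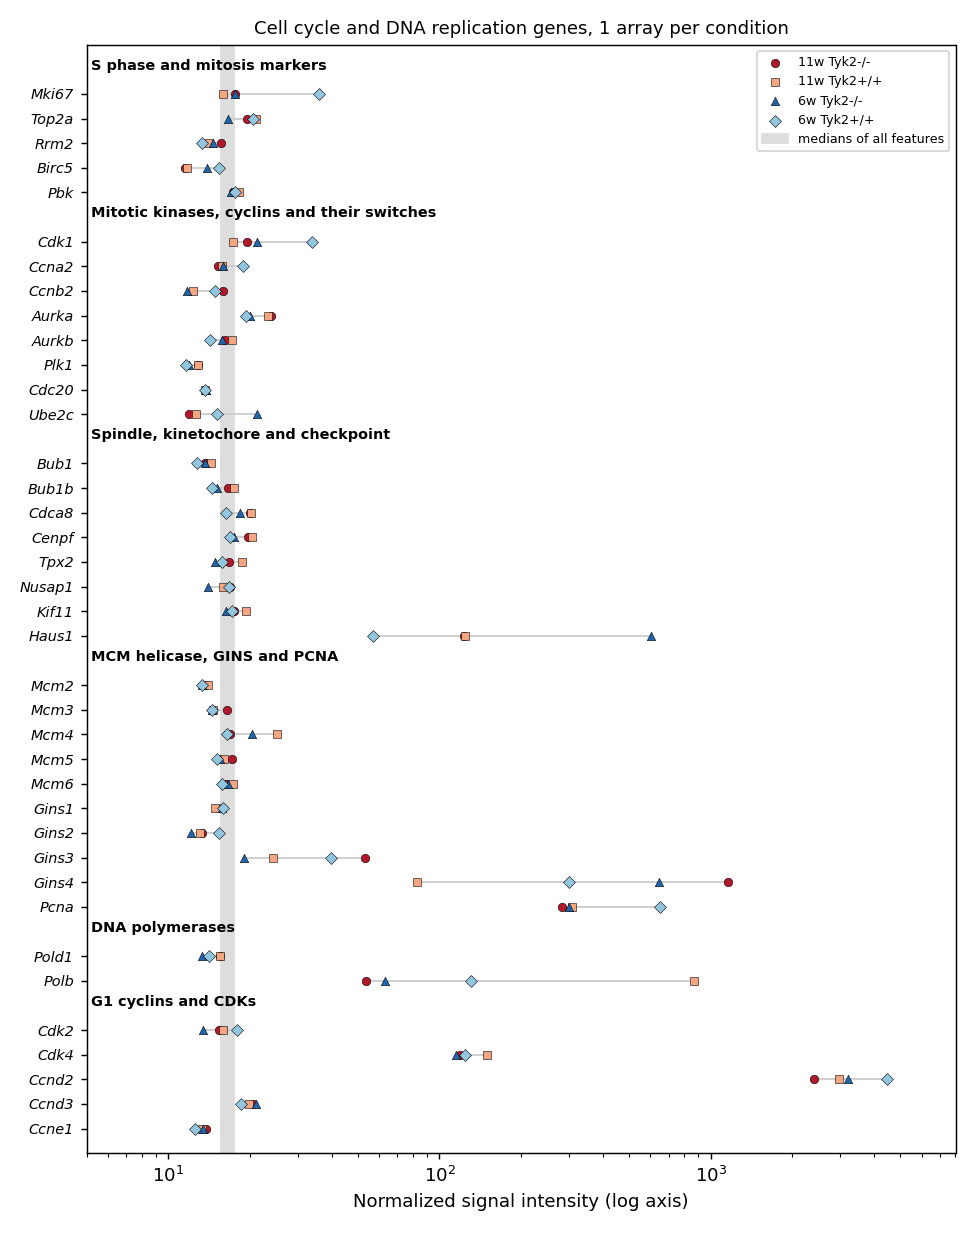
Normalized signal intensity (log axis) of the 38 measured genes, grouped by role, with 1 point for each of the 4 arrays and a grey band that spans the arrays' medians of all features. The 28 genes that were dim and never called lie between 11.5 and 25.1, close to the band. The widest lines belong to Polb, Gins4 and Haus1, followed by Gins3, Pcna and Mki67.

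With age in Tyk2+/+ mice, 1 of the 38 genes was called higher, against 2.14% of all genes, and 2 were called lower, against 1.45%. With age in Tyk2-/- mice, 1 was called higher, against 1.62% of all genes, and 1 was called lower, against 1.35%. Between the genotypes at 11w, 1 was called higher in Tyk2-/- β-cells, against 1.51% of all genes, and 1 was called lower, against 1.35%. At 6w, 1 was called higher in Tyk2-/- β-cells, against 1.26%, and 2 were called lower, against 1.09%. With counts of 1 or 2 genes per comparison these shares cannot be ranked. The called genes were Mki67, Cdk1, Ube2c, Haus1, Gins3, Gins4 and Polb, which are 18.4% of the 38, and 8.33% of all genes were called in at least 1 comparison. Among genes with a mean signal of 50 or more, 3 of 6 were called, against 548 of 5227 (10.5%) of all genes as bright, and among dimmer genes 4 of 32 (12.5%), against 1967 of 24949 (7.88%). The genes had been chosen with earlier results of these data known, so these shares do not show an excess over all genes.

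The genes' median lay close to that of all genes in each comparison. The median log2 difference with age was 0.08 in Tyk2+/+ mice, where that of all genes was 0.07, and 0.05 in Tyk2-/- mice, where that of all genes was also 0.05. Between the genotypes at 11w the median was -0.02, against 0.01 for all genes, and at 6w it was within 0.01 of zero, against 0.03. The age medians change sign with the scaling: with each array centred on its median they were -0.07 in Tyk2+/+ and -0.06 in Tyk2-/- mice, and those of all genes moved by the same -0.15 and -0.11.

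Mki67 encodes Ki-67, the antigen used to count dividing cells. Its signal was 17.6 in Tyk2-/- and 15.96 in Tyk2+/+ β-cells at 11w, and 17.6 in Tyk2-/- and 35.8 in Tyk2+/+ β-cells at 6w. Mki67 was thus well above the median of all features on the 6w Tyk2+/+ array and near it on the 3 others, and its signals on both Tyk2-/- arrays were equal. With age in Tyk2+/+ mice it fell by 1.17 on the log2 scale (ratio 0.446, Z score -2.5) and it fell by 1.03 in 6w Tyk2-/- against 6w Tyk2+/+ β-cells (ratio 0.491, Z score -2.2), while its difference was 0.14 between the genotypes at 11w. Both calls rest on the same 6w Tyk2+/+ array.

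Cdk1, the kinase that starts mitosis, had its highest signal on the same array. Its signals were 19.5 in Tyk2-/- and 17.3 in Tyk2+/+ β-cells at 11w, and 21.3 in Tyk2-/- and 33.9 in Tyk2+/+ β-cells at 6w. It fell by 0.97 with age in Tyk2+/+ mice (ratio 0.509), with a Z score of -2.0 that only just passed the limit. The call ended when a single SD served every feature or when a ratio over 2 or under 0.5 was the sole limit, as did the call of Ube2c described after it. The difference between 6w Tyk2-/- and 6w Tyk2+/+ β-cells was -0.67 (Z score -1.4), which was not called. Pcna, the sliding clamp, was also highest there, at 282.6 in Tyk2-/- and 308.6 in Tyk2+/+ β-cells at 11w, and 301.04 in Tyk2-/- and 650.3 in Tyk2+/+ β-cells at 6w. Its log2 differences of -1.08 with age in Tyk2+/+ mice and -1.11 between the genotypes at 6w were not called (Z scores -0.9 and -1.1), since features of its brightness varied widely, with a local SD of 1.18 and 1.06.

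No other marker or mitotic gene was called against the 6w Tyk2+/+ array. Top2a, which untangles DNA in S phase and mitosis, gave 19.5 in Tyk2-/- and 21.1 in Tyk2+/+ β-cells at 11w, and 16.6 in Tyk2-/- and 20.4 in Tyk2+/+ β-cells at 6w. Pbk, a mitotic kinase, gave 17.4 in Tyk2-/- and 18.2 in Tyk2+/+ β-cells at 11w, and 17.1 in Tyk2-/- and 17.6 in Tyk2+/+ β-cells at 6w. Neither gene was called. Cdc20, an activator of the anaphase-promoting complex, lay between 13.6 and 13.8 on all 4 arrays. Signals of Rrm2 (a ribonucleotide reductase subunit), Birc5 (survivin), Ccna2 and Ccnb2 (cyclins A and B), Aurkb and Plk1 (mitotic kinases) were between 11.5 and 18.9. Of these, Birc5 (15.4) and Ccna2 (18.9) were also highest in 6w Tyk2+/+ β-cells, with log2 differences of -0.40 and -0.26 with age in Tyk2+/+ mice that were not called. Aurka, the spindle pole kinase, was at 23.9 in Tyk2-/- and 23.3 in Tyk2+/+ β-cells at 11w, and 20.04 in Tyk2-/- and 19.3 in Tyk2+/+ β-cells at 6w, with the 11w arrays above the 6w arrays and no call.

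The 6w Tyk2+/+ array, on which Mki67, Cdk1 and Pcna were highest, also stood apart in markers of β-cells. Of the 11 β-cell markers measured, 4 were called lower with age in Tyk2+/+ mice, against 1.45% of all genes. In 6w Tyk2-/- against 6w Tyk2+/+ β-cells, 3 were called lower, against 1.09%. Of the 11, 10 lay below 0 in each of these 2 comparisons, with medians of -0.999 with age and -0.853 at 6w. Markers that fell without a call in either include Glp1r (-1.33 and -1.08) and Nkx6-1 (-0.87 and -0.85). Pdx1 (0.16 and -0.08) and Mafa (-0.18 and -0.13) differed less. Ins2 differed by -0.11 and -0.06, but its difference with age was the same as that of Gcg, Sst and Iapp, so it does not show a steady marker. Ucn3, a hormone of mature β-cells, was at 34.9 in Tyk2-/- and 22.4 in Tyk2+/+ β-cells at 11w, and 22.02 in Tyk2-/- and 1067 in Tyk2+/+ β-cells at 6w. G6pc2, which opposes glucokinase, was at 189.3 in Tyk2-/- and 87.5 in Tyk2+/+ β-cells at 11w, and 95.4 in Tyk2-/- and 605.5 in Tyk2+/+ β-cells at 6w. The part of this shift in the Mki67, Cdk1 and Pcna results was not tested. Summed signals of 10 pan-leukocyte markers were 160.0 in Tyk2-/- and 204.0 in Tyk2+/+ β-cells at 11w, and 148.5 in Tyk2-/- and 145.2 in Tyk2+/+ β-cells at 6w. Ptprc, the gene of CD45, was between 12.8 and 15.9, below the median on every array. Over all genes, 302 (1.001%) were higher on the 6w Tyk2+/+ array than on each other array by more than 1 on the log2 scale, and Mki67 and Pcna were among them.

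Ube2c, the ubiquitin-conjugating enzyme of the anaphase-promoting complex, stood out on a different array. Its signal was 11.9 in Tyk2-/- and 12.7 in Tyk2+/+ β-cells at 11w, and 21.2 in Tyk2-/- and 15.1 in Tyk2+/+ β-cells at 6w. It fell by 0.83 with age in Tyk2-/- mice (ratio 0.562, Z score -2.9), and the difference of 0.49 between the genotypes at 6w was not called (Z score 1.7). Its signal passed the median of all features on the 6w Tyk2-/- array alone.

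**Figure D2:**
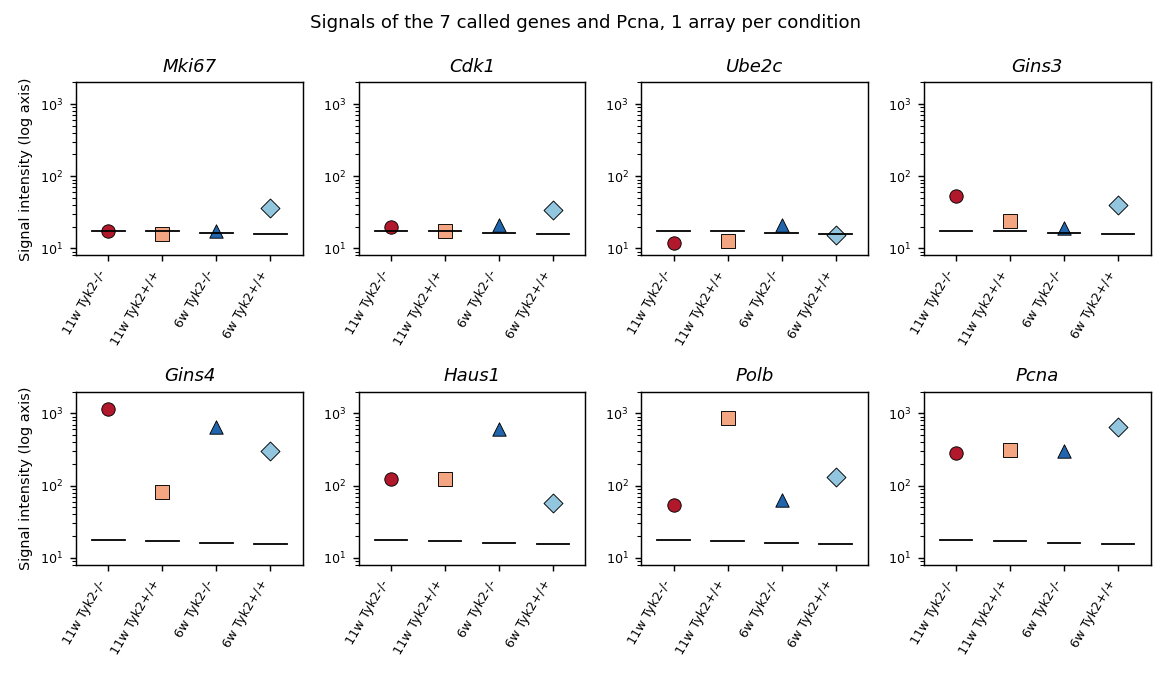
Normalized signal intensity (log axis) of the 7 called genes and Pcna on the 4 arrays, 1 panel per gene and 1 point per array, with a line at the median of all features of each array. The 11w Tyk2-/- array is highest for Gins3 and Gins4, the 11w Tyk2+/+ array for Polb, the 6w Tyk2-/- array for Ube2c and Haus1, and the 6w Tyk2+/+ array for Mki67, Cdk1 and Pcna.

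Promoter sequences were given for 29 of the 41 genes, and those of the 4 called genes among them are shown because division genes are known to be switched on through short elements near their start. Each window runs from 250 bases before to 30 bases after the RefSeq start in GRCm38.p6, on the strand of the gene, 5′ to 3′. Capitals mark matches to the E2F element (TTTCCCGC, TTTCGCGC, TTTGCCGC or TTTGGCGC), the CHR element (TTTGAA) and the CCAAT box (CCAAT), each searched on both strands, so that the reverse complements are in capitals too.
Mki67, chr7:135716350-135716629, minus strand: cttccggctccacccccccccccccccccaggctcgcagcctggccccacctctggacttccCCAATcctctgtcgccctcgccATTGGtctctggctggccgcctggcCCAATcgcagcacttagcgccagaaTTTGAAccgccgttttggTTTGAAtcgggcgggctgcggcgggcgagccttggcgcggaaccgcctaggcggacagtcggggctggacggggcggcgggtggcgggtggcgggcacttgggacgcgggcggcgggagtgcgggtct
Cdk1, chr10:69352883-69353162, minus strand: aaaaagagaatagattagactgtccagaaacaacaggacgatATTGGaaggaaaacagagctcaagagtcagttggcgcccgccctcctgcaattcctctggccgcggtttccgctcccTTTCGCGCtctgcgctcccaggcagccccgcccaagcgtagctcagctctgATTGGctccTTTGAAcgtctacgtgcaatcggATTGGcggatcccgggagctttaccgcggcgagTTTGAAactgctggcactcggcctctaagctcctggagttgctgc
Ube2c, chr2:164769679-164769958, plus strand: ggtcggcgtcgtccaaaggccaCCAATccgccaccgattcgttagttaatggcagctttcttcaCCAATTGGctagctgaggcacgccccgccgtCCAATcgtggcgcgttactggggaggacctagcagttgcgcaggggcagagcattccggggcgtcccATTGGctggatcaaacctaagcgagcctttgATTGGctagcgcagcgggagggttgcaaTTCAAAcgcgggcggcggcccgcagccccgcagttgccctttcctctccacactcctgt
Gins3, chr8:95633309-95633588, plus strand: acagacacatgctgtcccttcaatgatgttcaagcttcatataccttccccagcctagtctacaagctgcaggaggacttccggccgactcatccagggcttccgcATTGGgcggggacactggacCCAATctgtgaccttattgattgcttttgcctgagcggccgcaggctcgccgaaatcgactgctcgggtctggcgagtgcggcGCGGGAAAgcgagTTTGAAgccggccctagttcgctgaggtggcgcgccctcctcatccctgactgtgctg

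All 4 windows held a CHR match and CCAAT boxes on 1 strand or the other. In Mki67 the CHR matches began at -116 and -98 relative to the start, with CCAAT boxes at -188, -166 and -141. In Cdk1 they began at -71 and -15, with an E2F match at -131. Ube2c had a CHR match at -29 and 6 CCAAT boxes, 2 of which overlap in the letters CCAATTGG, and Gins3 had an E2F match at -41 beside a CHR match at -28. Over the 29 genes, an E2F match was found in 7 windows (24.1%), against 2.12% of 32851 promoters of the same length, a CHR match in 11 (37.9%), against 17.2%, and a CCAAT box in 23 (79.3%), against 36.1%. CHR matches lay in 9 of 17 marker, mitotic and spindle genes and 2 of the 12 other genes, and E2F matches in 1 of the 17 and 6 of the 12. A match is a string of letters and not a site of binding. Among the 4 genes shown, the highest signals of Mki67 and Cdk1 were on the 6w Tyk2+/+ array, that of Ube2c on the 6w Tyk2-/- array and that of Gins3 on the 11w Tyk2-/- array.

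The spindle and kinetochore genes were dim, with the exception of Haus1. The 7 others had signals between 12.8 and 20.4. They include Bub1 and Bub1b (checkpoint kinases), Cdca8 (a subunit of the chromosomal passenger complex), Cenpf (a kinetochore protein), Tpx2, Nusap1 and Kif11 (spindle assembly factors and a motor). Cdca8 was at 20.1 in Tyk2-/- and 20.2 in Tyk2+/+ β-cells at 11w, and 18.3 in Tyk2-/- and 16.4 in Tyk2+/+ β-cells at 6w, with both 11w arrays above both 6w arrays. Cenpf had the same split, at 19.7 in Tyk2-/- and 20.4 in Tyk2+/+ β-cells at 11w, and 17.5 in Tyk2-/- and 16.8 in Tyk2+/+ β-cells at 6w. Kif11 was at 17.5 in Tyk2-/- and 19.3 in Tyk2+/+ β-cells at 11w, and 16.3 in Tyk2-/- and 17.2 in Tyk2+/+ β-cells at 6w. The medians of all features were likewise higher at 11w (17.5 and 17.3) than at 6w (16.2 and 15.7). Of the 8 spindle genes, 7 had a log2 difference above 0 with age in Tyk2+/+ and 7 in Tyk2-/- mice. Of all genes, 61.2% and 58.8% were above 0. The medians of the 8 were 0.25 and 0.14, with no call. With arrays centred 7 and 5 remained above 0, with medians of 0.11 and 0.03, and so did 11574 and 12368 of 30176 of all genes.

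Haus1 encodes a subunit of augmin, the complex that branches microtubules inside the spindle. Its signal was 123.3 in Tyk2-/- and 124.6 in Tyk2+/+ β-cells at 11w, and 600.4 in Tyk2-/- and 56.9 in Tyk2+/+ β-cells at 6w. The 11w arrays were nearly equal and lay between the 6w arrays. Haus1 was 10.5-fold higher in 6w Tyk2-/- than in 6w Tyk2+/+ β-cells, a log2 difference of 3.40 with a Z score of 3.3. With age its log2 difference was -2.28 in Tyk2-/- mice and 1.13 in Tyk2+/+ mice, neither called (Z scores -1.8 and 1.0). It was the one gene among the 38 that was higher than on each other array by more than 1 log2 on the 6w Tyk2-/- array, as were 204 (0.676%) of all genes, and lower by as much on the 6w Tyk2+/+ array, as were 16 (0.0530%).

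Of the 7 other augmin subunits, 5 were measured, with signals between 13.7 and 60.7. None was called in any comparison, against 8.33% of all genes, and 5 genes are too few to compare with that share. Haus2, the brightest of them, was at 60.7 in Tyk2-/- and 36.2 in Tyk2+/+ β-cells at 11w, and 49.9 in Tyk2-/- and 33.5 in Tyk2+/+ β-cells at 6w. On the 6w Tyk2-/- array the summed signal of 7 fibroblast markers was 9326, against 18153 on the 6w Tyk2+/+ array, 19274 on the 11w Tyk2-/- array and 14330 on the 11w Tyk2+/+ array, and Dpt, a matrix protein of fibroblasts, fell by 2.90 in 6w Tyk2-/- against 6w Tyk2+/+ β-cells. Decorin (Dcn) made up most of these sums, with 8375 on the 6w Tyk2-/- array and 15275 on the 6w Tyk2+/+ array, and Lum, another matrix protein, went the other way, with 508.5 on the 6w Tyk2-/- array against 197.4 on the 6w Tyk2+/+ array (log2 difference 1.37, not called). The median log2 difference of the 7 markers between these arrays was -0.09. The part of fibroblasts in the Haus1 result was not tested.

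The subunits of the MCM helicase were dim and even. Mcm2, Mcm3, Mcm5 and Mcm6 lay between 13.3 and 17.3 on all 4 arrays. Mcm4 was at 16.9 in Tyk2-/- and 25.1 in Tyk2+/+ β-cells at 11w, and 20.3 in Tyk2-/- and 16.4 in Tyk2+/+ β-cells at 6w, with log2 differences of 0.61 with age in Tyk2+/+ mice and -0.57 between the genotypes at 11w, neither called (Z scores 1.5 and -1.5). None of the 5 measured MCM subunits was called in any comparison, against 8.33% of all genes, and 5 are too few to compare with that share.

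The 4 GINS subunits, which act as 1 complex with the MCM ring, differed from each other. Gins1 lay between 14.9 and 15.8 and Gins2 between 12.1 and 15.4, without a call. Gins3 was at 52.9 in Tyk2-/- and 24.3 in Tyk2+/+ β-cells at 11w, and 19.1 in Tyk2-/- and 39.7 in Tyk2+/+ β-cells at 6w. It rose 2.77-fold with age in Tyk2-/- mice (log2 difference 1.47, Z score 2.6) and fell by 1.06 in 6w Tyk2-/- against 6w Tyk2+/+ β-cells (ratio 0.481, Z score -2.2). The differences of -0.71 with age in Tyk2+/+ mice and 1.12 between the genotypes at 11w were not called (Z scores -1.2 and 1.9).

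Gins4 had a far wider span. Its signal was 1163 in Tyk2-/- and 82.3 in Tyk2+/+ β-cells at 11w, and 645.6 in Tyk2-/- and 300.8 in Tyk2+/+ β-cells at 6w, so that both Tyk2-/- arrays were above both Tyk2+/+ arrays. Gins4 was 14.1-fold higher in 11w Tyk2-/- than in 11w Tyk2+/+ β-cells (log2 difference 3.82, Z score 3.1). The difference of 1.10 between the genotypes at 6w (Z score 1.0), and those of 0.85 in Tyk2-/- and -1.87 in Tyk2+/+ mice with age (Z scores 0.8 and -1.5), were not called. The 11w Tyk2+/+ array was lower than each other array by more than 1 log2 for Gins4 and for 154 (0.510%) of all genes.

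The 11w Tyk2-/- array, on which Gins3 and Gins4 were highest, also held more signal of acinar cells, which make digestive enzymes. Summed over 13 markers it was 379.9 in Tyk2-/- and 233.9 in Tyk2+/+ β-cells at 11w, and 223.0 in Tyk2-/- and 301.8 in Tyk2+/+ β-cells at 6w. With age in Tyk2-/- mice, 3 of the 13 were called higher, against 1.62% of all genes. All 13 lay above 0 in this comparison, against 58.8% of all genes. Between the genotypes at 11w, 5 were called higher, against 1.51% of all genes, and 12 lay above 0, against 52.2%. Clps, a cofactor of pancreatic lipase, was at 68.6 in Tyk2-/- and 19.7 in Tyk2+/+ β-cells at 11w, and 25.96 in Tyk2-/- and 39.5 in Tyk2+/+ β-cells at 6w. The part of these cells in the Gins3 and Gins4 results was not tested.

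Polb, the polymerase that fills short gaps in base excision repair, had the widest log2 span over the 4 arrays. Its signal was 53.4 in Tyk2-/- and 868.5 in Tyk2+/+ β-cells at 11w, and 63.0 in Tyk2-/- and 131.1 in Tyk2+/+ β-cells at 6w. A single array, that of 11w Tyk2+/+ β-cells, was high, and 110 (0.365%) of all genes were likewise higher on it than on each other array by more than 1 log2. Polb rose 6.62-fold with age in Tyk2+/+ mice (log2 difference 2.73, Z score 2.3) and fell by 4.02 in 11w Tyk2-/- against 11w Tyk2+/+ β-cells (ratio 0.0615, Z score -3.2). Its log2 difference was -0.24 with age in Tyk2-/- mice and -1.06 between the genotypes at 6w (Z scores -0.2 and -1.0), without a call. Pold1, the catalytic subunit of the replicative polymerase δ, lay between 13.3 and 15.5.

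Of 17 other genes of base excision repair, 14 were measured, at signals between 9.1 and 79.9. None was called in any comparison, against 8.33% of all genes. With 14 genes, this does not set the list apart from all genes. Apex1, the endonuclease that cuts the strand before Polb acts, was at 54.9 in Tyk2-/- and 45.8 in Tyk2+/+ β-cells at 11w, and 79.9 in Tyk2-/- and 67.4 in Tyk2+/+ β-cells at 6w. The leukocyte genes Cd48 and Ptpn6 were also called higher with age in Tyk2+/+ mice (log2 differences 1.08 and 1.23) and lower in 11w Tyk2-/- against 11w Tyk2+/+ β-cells (-1.02 and -1.27), the 2 calls that Polb had. They were the called genes among 10 pan-leukocyte markers. Of all genes, 2.14% were called higher in the first of these comparisons and 1.35% lower in the second. With age in Tyk2+/+ mice all 10 markers lay above 0, with a median of 0.20, against 61.2% of all genes. Of these 10 markers, 4 had a log2 difference above 0 in 11w Tyk2-/- against 11w Tyk2+/+ β-cells (Ptprc 0.06, Laptm5 0.20, Coro1a 0.07 and Rac2 0.13), and their median was -0.09. Of 8 markers of T and NK cells, 7 were above 0 in this comparison, against 52.2% of all genes, with a median of 0.13 and no call. Of 10 markers of macrophages and dendritic cells, 7 were below 0 in it, with a median of -0.13 and no call. With age in Tyk2+/+ mice 9 of these 10 were above 0, and 1 (Aif1) was called higher, against 2.14% of all genes. The part of leukocytes in the Polb result was not tested.

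**Figure D3:**
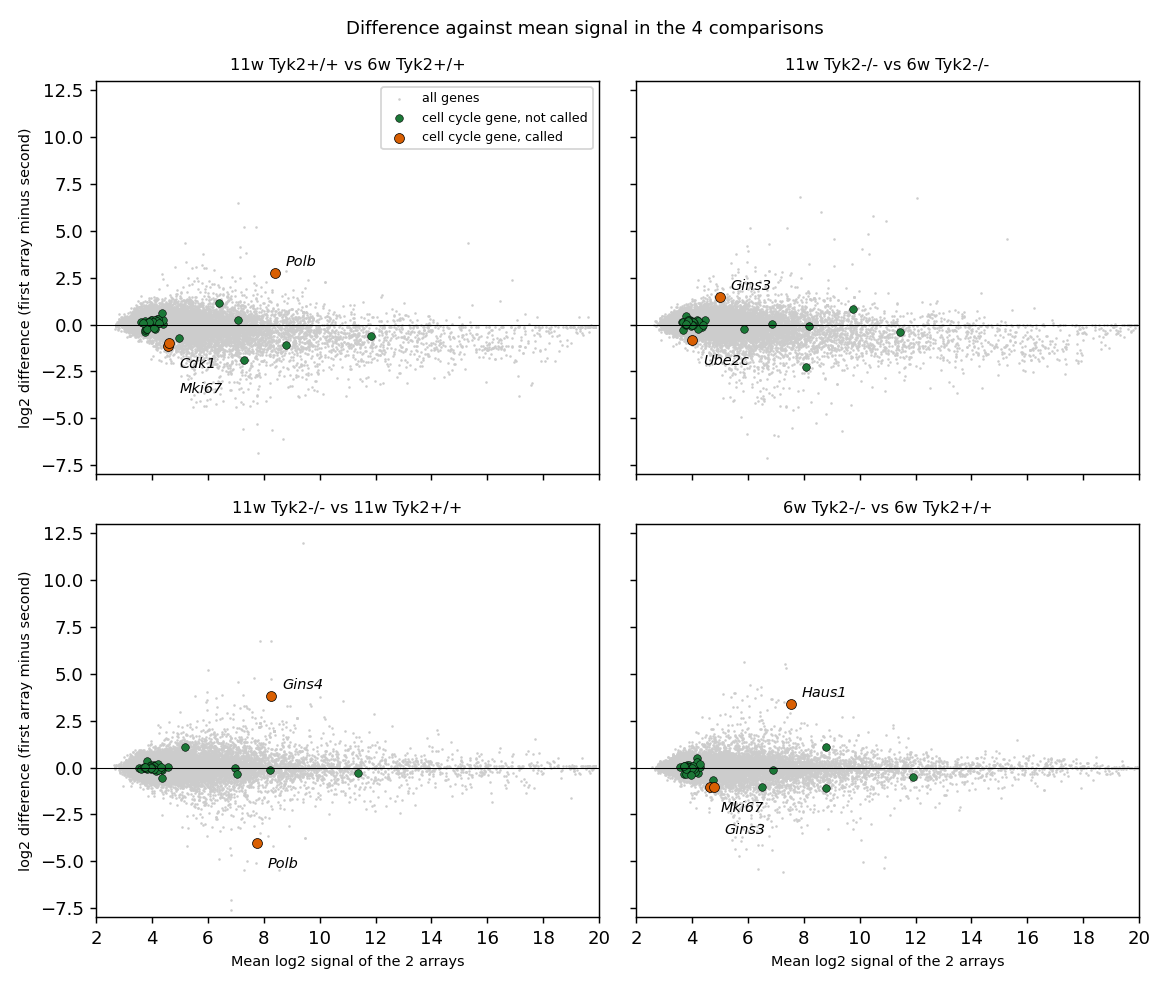
Log2 difference between 2 arrays against their mean log2 signal in each of the 4 comparisons, for all genes (grey), cell cycle genes that were not called (green) and those called (orange, named). Most cell cycle genes sit at low signal and near 0, and Haus1 (3.40), Gins4 (3.82) and Polb (2.73 and -4.02) lie at the edge of the grey cloud at middle signal. Polb, a polymerase of base excision repair, is counted among the cell cycle genes here.

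The genes that open the cell cycle were the steadiest among the bright ones. Ccnd2, the D-type cyclin known to drive β-cell growth in mice, was at 2405 in Tyk2-/- and 2968 in Tyk2+/+ β-cells at 11w, and 3213 in Tyk2-/- and 4488 in Tyk2+/+ β-cells at 6w. The 11w array was below the 6w array in both genotypes and the Tyk2-/- array below the Tyk2+/+ array at both ages. Its log2 differences were -0.60 with age in Tyk2+/+ mice, -0.42 with age in Tyk2-/- mice, -0.30 between the genotypes at 11w and -0.48 at 6w, with Z scores between -0.7 and -0.3 and no call. All genes with a mean signal of 50 or more had medians of -0.28, -0.20, 0.04 and -0.02 in these comparisons.

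Cdk4, the kinase that D-type cyclins activate, was at 118.8 in Tyk2-/- and 149.4 in Tyk2+/+ β-cells at 11w, and 114.9 in Tyk2-/- and 124.4 in Tyk2+/+ β-cells at 6w. Its largest difference was -0.33, between the genotypes at 11w, with a Z score of -0.3. Ccnd3, a further D-type cyclin, lay near the median of all features, at 20.5 in Tyk2-/- and 19.8 in Tyk2+/+ β-cells at 11w, and 21.0 in Tyk2-/- and 18.5 in Tyk2+/+ β-cells at 6w. Cdk2 and its partner Ccne1, which act at the start of S phase, lay between 12.6 and 17.97. None of the 5 measured genes of this role was called in any comparison, against 8.33% of all genes.

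The wider pathways were described by lists that leave out the 41 genes and were also chosen with earlier results of these data known. For origin licensing, the replication fork and nucleotide supply, 43 genes were measured. With age in Tyk2+/+ mice, 1 was called higher, against 2.14% of all genes, and 2 were called lower, against 1.45%. The counts in Tyk2-/- mice were the same, against 1.62% and 1.35% of all genes. In Tyk2-/- against Tyk2+/+ β-cells at 11w, 1 was called higher and 1 lower, against 1.51% and 1.35% of all genes. At 6w, 2 were called lower, against 1.09%. Tipin, a protein that steadies the fork, was lower at 11w in both genotypes: 100.1 in Tyk2-/- and 35.3 in Tyk2+/+ β-cells at 11w, and 598.9 in Tyk2-/- and 656.0 in Tyk2+/+ β-cells at 6w, or log2 differences of -2.58 and -4.22. Orc2, a subunit of the origin recognition complex, was at 21.2 in Tyk2-/- and 26.3 in Tyk2+/+ β-cells at 11w and at 23.9 in Tyk2-/- and 110.5 in Tyk2+/+ β-cells at 6w, so that a single array was high. It fell by 2.07 with age in Tyk2+/+ mice and fell by 2.21 in 6w Tyk2-/- against 6w Tyk2+/+ β-cells. Rfc4, of the clamp loader for PCNA, fell by 2.08 with age in Tyk2-/- mice. In all, 5 of the 43 (11.6%) were called in at least 1 comparison, against 8.33% of all genes.

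Both primase subunits were called, on different arrays. Prim1, the catalytic subunit, was at 55.5 in Tyk2-/- and 23.3 in Tyk2+/+ β-cells at 11w, and 21.2 in Tyk2-/- and 50.3 in Tyk2+/+ β-cells at 6w, the same order of the 4 arrays as for Gins3. It rose by 1.39 with age in Tyk2-/- mice and by 1.25 in 11w Tyk2-/- against 11w Tyk2+/+ β-cells, and fell by 1.24 in 6w Tyk2-/- against 6w Tyk2+/+ β-cells. Prim2, the partner subunit, was at 18.01 in Tyk2-/- and 33.6 in Tyk2+/+ β-cells at 11w, and 18.3 in Tyk2-/- and 16.2 in Tyk2+/+ β-cells at 6w. It rose by 1.06 with age in Tyk2+/+ mice and fell by 0.90 in 11w Tyk2-/- against 11w Tyk2+/+ β-cells.

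Of 50 genes of the spindle, kinetochore, checkpoint and cytokinesis, Aspm, a spindle pole protein, was the only one called in any of the 4 comparisons (2.0%, against 8.33% of all genes). It was at 16.01 in Tyk2-/- and 15.1 in Tyk2+/+ β-cells at 11w, and 13.8 in Tyk2-/- and 24.6 in Tyk2+/+ β-cells at 6w, and fell by 0.83 in 6w Tyk2-/- against 6w Tyk2+/+ β-cells. Of 34 cyclins, CDKs, inhibitors and RB and E2F genes, 3 (8.82%) were called in at least 1 comparison, a share close to the 8.33% of all genes. Ccng1, a target of p53, was at 85.8 in Tyk2-/- and 2930 in Tyk2+/+ β-cells at 11w, and 2352 in Tyk2-/- and 8854 in Tyk2+/+ β-cells at 6w, with the 11w Tyk2-/- array far below the others. It fell by 4.78 with age in Tyk2-/- mice, fell by 5.09 in 11w Tyk2-/- against 11w Tyk2+/+ β-cells and fell by 1.91 in 6w Tyk2-/- against 6w Tyk2+/+ β-cells. Cdkn1a, the inhibitor p21, was at 31.6 in Tyk2-/- and 117.4 in Tyk2+/+ β-cells at 11w, and 56.8 in Tyk2-/- and 74.1 in Tyk2+/+ β-cells at 6w and fell by 1.89 in 11w Tyk2-/- against 11w Tyk2+/+ β-cells. Cdkn1b, the inhibitor p27, fell by 0.95 with age in Tyk2+/+ mice. The list medians over the 5 lists and 4 comparisons lay between -0.06 and 0.12.

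**Figure D4:**
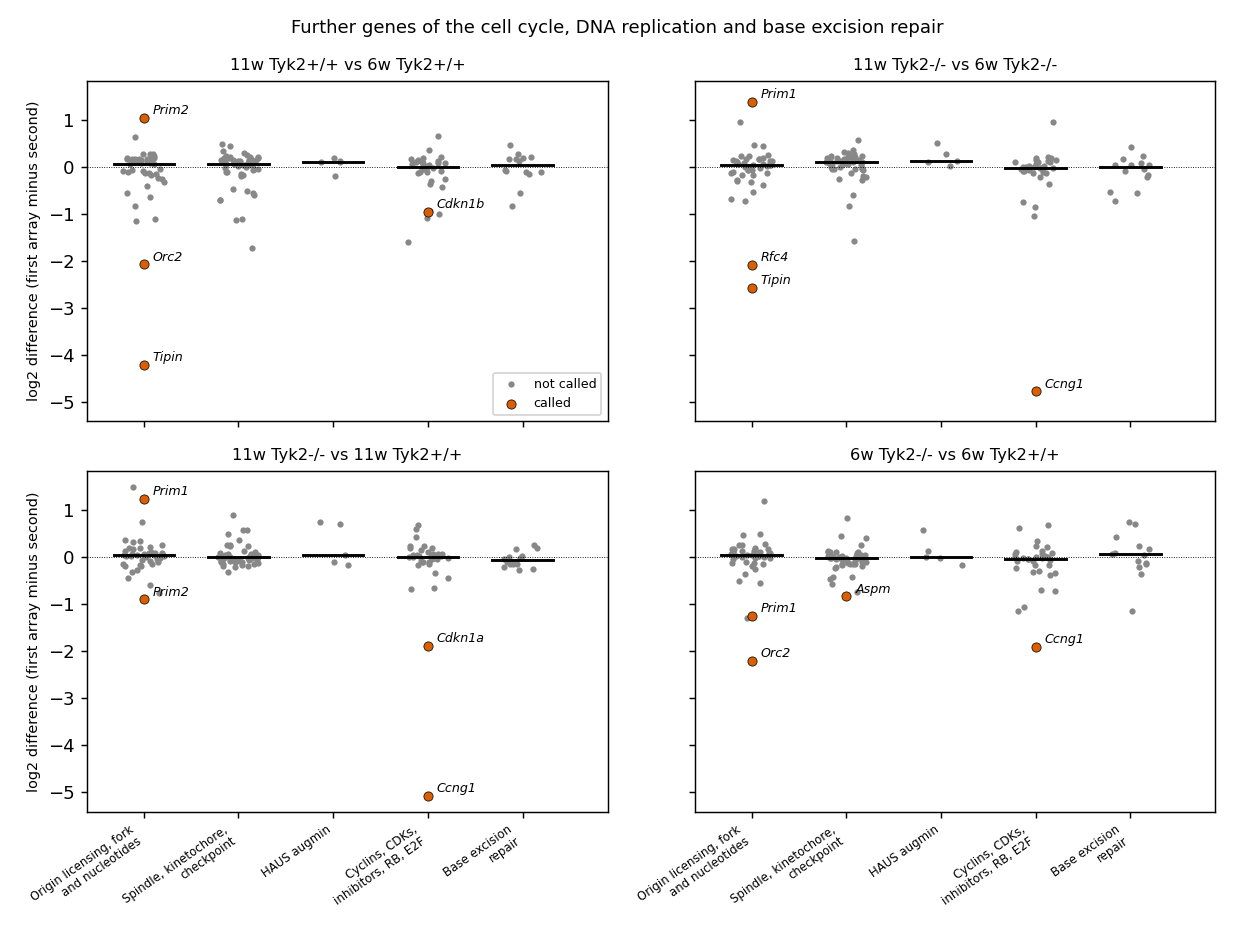
Log2 differences of the genes of 5 supporting lists in the 4 comparisons, 1 point per gene, with called genes in orange and a bar at each list's median. The bulk of each list lies near 0, and single genes such as Tipin (-4.22 and -2.58) and Ccng1 (-4.78 and -5.09) lie far below it.

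Genes next to the called ones on the chromosome were mostly not called. Among the 5 genes on each side in RefSeq order in GRCm38.p6, none of 10 was called for Mki67, Ube2c, Haus1, Gins4 or Polb in the comparisons where these were called. The same held for Gins3 in 6w Tyk2-/- against 6w Tyk2+/+ β-cells. For Cdk1 with age in Tyk2+/+ mice, and for Gins3 with age in Tyk2-/- mice, 1 of the 10 was called lower. Over the 4 comparisons, 1.26% to 2.14% of all genes were called higher and 1.09% to 1.45% lower. Counts this small in 10 genes do not set the neighbours apart from other genes.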

How the data were processed

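Pooled β-cell RNA of the 4 conditions had been amplified with the GeneChip WT Pico kit and hybridised to Affymetrix Clariom D mouse arrays. The authors deposited normalized signal intensities of 65956 features on a linear scale, made with Affymetrix Expression Console; its version, background correction and normalization are not given in the sources used here. Signals were turned to log2 and compared in Python 3.11.15 (NumPy 2.4.6, pandas 2.3.3, matplotlib 3.10.9 for plots). The study's methods do not give the calculation of the Z score, and swap the greater-than and less-than signs of the ratio; over 1.5 and under 0.66 was taken to be meant. Features with 1 gene symbol in the platform annotation (30638) name a gene, the brightest where several do (354 genes). Probe coordinates are left out because no source names their genome build.

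All 4 values are given for called genes, D-type cyclins, Cdk4, Mki67, Top2a, Cdk1, Pcna, genes at or above the array median on 3 or more arrays and up to 4 called genes per supporting list, with a few chosen after they were seen. The members and lists were chosen with earlier results of these data known. The calling code was checked on simulated data, which gives no error rate for the calls on these arrays. The 1 array per condition limits the precision. The alternatives were another window, 1 SD for all features, a ratio alone, centring, quantile normalization, no dim features and a mean over features.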

Additional observations from a re-analysis of the deposited data

Results flagged for a closer look

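Of the 38 genes, 3 (7.89%) had log2 differences with age in opposite directions in the genotypes, past the ratio limits in both. The Z score limit was not applied here. Opposite differences of this kind were found for 353 (1.17%) of all genes and 249 (4.76%) of the 5227 with a mean signal of 50 or more. For Haus1 the log2 change with age was -2.28 in Tyk2-/- and 1.13 in Tyk2+/+ mice, a difference of -3.41. For Gins4 it was 0.85 in Tyk2-/- and -1.87 in Tyk2+/+ mice, a difference of 2.72. For Gins3 it was 1.47 in Tyk2-/- and -0.71 in Tyk2+/+ mice, a difference of 2.18. Of these changes with age, only that of Gins3 in Tyk2-/- mice was called. The genes had been chosen with earlier results of these data known, so the share of 7.89% does not show an excess over all genes. With 1 array per condition these differences were not tested.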

How the results depend on the processing

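Of 154 values recomputed under 7 alternatives, 139 kept their direction and side of the limits, or moved by no more than 0.1 (medians) or 1.5 times (counts). Many of them could not move. Each measured gene had 1 feature, so the mean over features left its signals as they were. The window, the SD and the ratio limit can change calls but not log2 differences or their medians. The count of 139 is therefore no measure of how firm the results are. With 1 SD for all features, and likewise with a ratio over 2 or under 0.5 alone, 2 genes were called higher with age in Tyk2+/+ mice (Haus1, Polb), 2 in 11w Tyk2-/- against 11w Tyk2+/+ β-cells (Gins3, Gins4) and 2 in 6w Tyk2-/- against 6w Tyk2+/+ β-cells (Haus1, Gins4), while 4 were called lower in this last comparison (Mki67, Gins3, Pcna, Polb). Both settings ended the calls of Cdk1 and Ube2c, called Gins4 lower with age in Tyk2+/+ mice beside Mki67 (the ratio alone also Pcna) and called Haus1 lower with age in Tyk2-/- mice. The other 8 calls held under all 7 alternatives, though the mean over features left their signals unchanged and was no check. The genes' median with age turned to -0.0715 in Tyk2+/+ and -0.0607 in Tyk2-/- mice with centred arrays and to -0.0611 in Tyk2+/+ mice with quantile normalization; centring moved the medians of all genes by -0.15 and -0.11. No paired analysis was possible because each condition has 1 array, and no array could be left out. Signals of 32 of the 38 genes averaged under 50, as did 24949 of 30176 of all genes, near the median of all features, where a change is hard to see.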
